A study of Mus musculus with 16 samples.

Results

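Leukocyte surface antigens that carry a CD number, together with the Ly6 and Fc gamma receptor genes, were examined in the liver of mice fed coffee diterpenes. The genes were chosen by symbol: probes with a single platform gene symbol made of Cd, digits and optional letters, or starting with Ly6 or Fcgr, were taken. Cd68, Cd74, Cd36 and Cd2ap were left out. This gave 52 genes from 55 probes, of 8923 genes and unnamed probes on the array. They were grouped by known expression into 16 lymphoid, 10 myeloid and 25 broadly expressed antigens, and Cd2bp2, an intracellular protein that binds the tail of CD2, was kept apart. The Cd1d1, Cd300c2 and Cd2bp2 symbols have a further digit after the letters and belong only under the wider reading of the rule. Of the 52 genes, 49 had a value in at least 6 mice and were tested. Cd5 (values in 3 mice), Cd79b (4 mice) and Cd209a (4 mice) were not tested, and their means lay within 0.02 of 0.

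The treated animals were 8 female APOE3Leiden mice, transgenic for a variant of human apolipoprotein E, on a C57BL6/JIco background. From 10 weeks of age they received a Western-type diet with 15 g fat and 0.25 g cholesterol per 100 g, to which 0.04% cafestol and 0.02% kahweol had been added, for 4 weeks. The control was liver RNA from mice of the same transgenic line on the Western-type diet alone, a group of 7 mice. Both groups therefore share the transgene and the fat and cholesterol load, and the promoter of the transgene is not stated in the sources used here. Each treated liver was hybridised on 2 cDNA arrays, 16 in all, with the control RNA in Cy3 and the treated RNA in Cy5.

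CD antigens are surface proteins by which leukocytes are told apart with antibodies, and include receptors, adhesion molecules and inhibitors of complement. In the liver they mark resident macrophages (Kupffer cells), lymphocytes and natural killer cells, while some tetraspanins and complement regulators are also made by endothelium and hepatocytes. Ly6 proteins are small lipid-anchored surface proteins, and Fc gamma receptors bind immunoglobulin G.

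All values are the log2 ratios that the authors deposited, averaged over the probes of a gene and the arrays of a mouse, and are given as mean ± SD over mice. Which channel is the numerator is not stated in the sources used here, and negative and positive are printed as deposited. In the same ratio Gstm1, a glutathione S-transferase that these diterpenes are known to induce, stood at -2.48 ± 0.23 (n = 8 mice). Cyp7a1, a bile acid enzyme they are known to lower, stood at 1.56 ± 0.38 (n = 8 mice). If both genes responded in that way here, a negative ratio stands for more RNA in treated than in control liver, which was not tested. A gene was called when the limma test of the mouse means against 0 gave a Benjamini-Hochberg adjusted p under 0.05 over all 8348 genes and unnamed probes tested. No label names single control mice, so the p-values reflect the spread of the treated mice and not that of controls. Control RNA was in Cy3 on every array, so a dye effect on a probe cannot be told apart from the diet. The ratios carry 1 decimal, which makes 0.138 the smallest step from 0 of a single value. Liver RNA is a mixture, and a different number of cells of a type cannot be told apart from a different amount of RNA per cell.

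Most antigens that were called lay on the negative side, by small amounts. Of the 49 tested, 29 were called, 22 negative and 7 positive, and 20 were not. This is 59.2% called against 43.4% of all features, with 44.9% against 25.4% negative and 14.3% against 18.0% positive. The median of the mean log2 ratios was -0.08 for the antigens and -0.02 for all features. Ratios had the same sign in every mouse for 12 antigens (24.5%), against 18.4% of all features. Called antigens at least 1.2-fold from 0 numbered 6 (12.2%, against a background of 8.23%), namely Ly6d, Ly6e, Cd53, Cd52, Cd1d1 and Cd55. Only Ly6d and Ly6e of the 49 were called and at least 1.5-fold from 0, where 0.755% of all features were. The means of 8 called antigens were nearer to 0 than the smallest step of a single value: Cd3g, Cd4, Fcgr3, Cd86, Cd93, Cd47, Ly6f and Cd151.

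**Figure D1:**
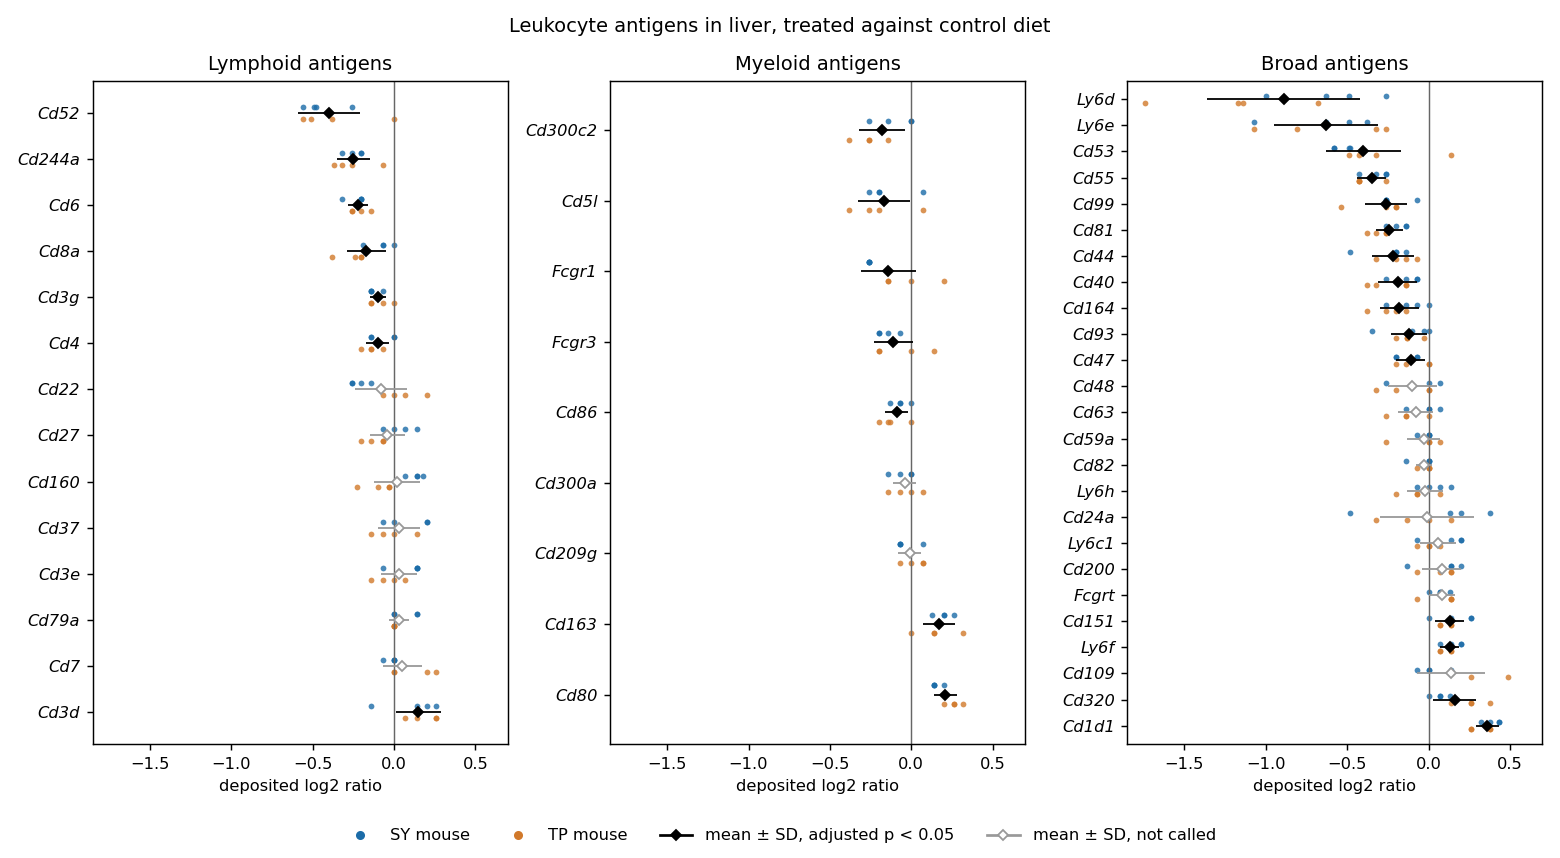
Deposited log2 ratio (horizontal axis) of each tested antigen in the lymphoid, myeloid and broad classes, with a point for each mouse and the mean ± SD over mice. Ly6d (-0.89) and Ly6e (-0.63) lie farthest below 0 and Cd1d1 (0.36) farthest above it.

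The myeloid class had 7 of 9 genes called (5 negative, 2 positive; median -0.09), the lymphoid class 7 of 14 (6 negative, 1 positive; median -0.06) and the broad class 15 of 25 (11 negative, 4 positive; median -0.08). These are 77.8%, 50% and 60.0%, beside 43.4% of all features. The myeloid count fell to 4 without SY518Z or without TP4163, when 38.4% and 36.9% of all features were called. With the control taken as a mix of mice, an alternative described further on, it fell to 2, beside 21.7% of all features. The medians of the classes thus lay within 0.03 of each other. Single genes within a class spread far more widely.

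**Figure D2:**
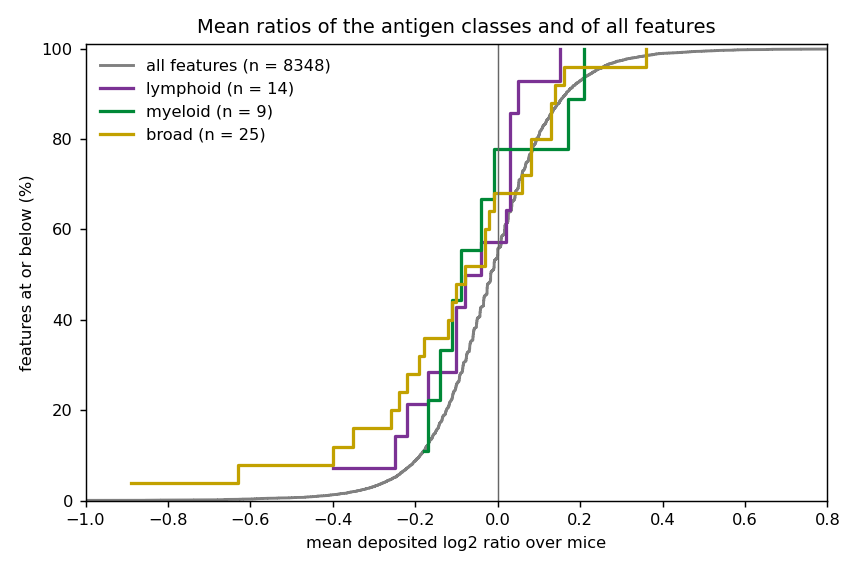
Share of features (vertical axis, percent) at or below each mean deposited log2 ratio (horizontal axis), for all 8348 features and the 3 antigen classes. The class medians of -0.06 to -0.09 sit to the left of the median of all features, -0.02.

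Among the lymphoid antigens the T-cell receptor complex did not lie on a single side. Cd3d, Cd3e and Cd3g encode the invariant CD3 chains that carry the signal of the T-cell receptor, and they are neighbours on mouse chromosome 9. Their promoters are shown because the same cells express these genes and 1 of the 3 pairs, Cd3d and Cd3g, differed in its ratios. Each stretch runs from 250 bases before to 50 after the start site on the gene's strand, from RefSeq on GRCm38.p6: Cd3g at chr9:44980382-44980681 (minus strand), Cd3d at chr9:44981536-44981835 (plus strand) and Cd3e at chr9:45009562-45009861 (minus strand). Capitals mark GGAA or TTCC, the core bound by ETS factors read on either strand.
Cd3g promoter: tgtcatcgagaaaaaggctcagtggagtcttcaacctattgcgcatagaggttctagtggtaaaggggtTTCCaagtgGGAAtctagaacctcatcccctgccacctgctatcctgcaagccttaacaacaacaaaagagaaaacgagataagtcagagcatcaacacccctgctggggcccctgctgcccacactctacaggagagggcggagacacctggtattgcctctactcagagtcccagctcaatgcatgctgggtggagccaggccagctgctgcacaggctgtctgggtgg
Cd3d promoter: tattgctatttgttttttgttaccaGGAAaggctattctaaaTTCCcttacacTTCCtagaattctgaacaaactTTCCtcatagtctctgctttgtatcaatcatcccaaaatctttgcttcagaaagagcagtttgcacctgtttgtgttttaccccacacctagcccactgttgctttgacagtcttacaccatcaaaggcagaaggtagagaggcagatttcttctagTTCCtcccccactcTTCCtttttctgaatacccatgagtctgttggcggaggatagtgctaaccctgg
Cd3e promoter: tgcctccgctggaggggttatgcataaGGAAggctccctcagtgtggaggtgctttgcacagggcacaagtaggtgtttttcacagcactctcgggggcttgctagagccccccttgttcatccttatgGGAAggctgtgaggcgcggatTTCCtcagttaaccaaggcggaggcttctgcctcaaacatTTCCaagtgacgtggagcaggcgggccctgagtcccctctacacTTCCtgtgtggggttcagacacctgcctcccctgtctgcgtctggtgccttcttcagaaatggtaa
The starts of Cd3g and Cd3d lie 1355 bases apart on opposite strands, and those of Cd3d and Cd3e 27825 bases apart. Cd3d held 6 cores, as many or more of which occur in 15.7% of the 32851 promoters of the table. Cd3e held 5 (28.6% of promoters hold as many) and Cd3g 2 (84.6%). A core is found in 96.0% of all promoters, with a median of 3, so a match is a description of the letters and not a site. Of the 52 antigens, 37 had a promoter in the table.

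Cd3d (Entrez 12500) ran from -0.14 to 0.26 with a median of 0.17. It was positive in 7 mice and negative in SY518Z alone, with a mean of 0.15 ± 0.14 (limma, adjusted p = 0.0159). Cd3g (Entrez 12502) ran from -0.14 to 0.00, with a median of -0.14. Its values were negative in 7 mice and 0 in TP4205, with a mean of -0.10 ± 0.05 (adjusted p = 0.00973). Cd3e, at 0.03 ± 0.11, was not called (adjusted p = 0.606). Within a mouse, Cd3d exceeded Cd3g in 7 of 8 mice and equalled it in the other, by 0.25 ± 0.14 on the log2 scale (exact sign-flip test, two-sided p = 0.0156; adjusted over the 11 gene pairs compared, 0.043). The difference of Cd3d and Cd3e was 0.12 ± 0.12 (exact p = 0.0469, adjusted 0.0859) and that of Cd3e and Cd3g 0.13 ± 0.13 (exact p = 0.0625, adjusted 0.0859), neither past the threshold. The 11 pairs were picked after the values had been seen, so adjustment over them does not correct for that choice, here or further on. The smallest p that 8 mice allow is 0.00781. Such a difference between ratios does not show which gene changed. No dyes were swapped, so dye effects that differ between the probes cannot be told apart from it.

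The coreceptors that define helper and cytotoxic T cells both lay below 0. Cd8a (Entrez 12525), the cytotoxic coreceptor, ran from -0.38 in TP4163 to 0.00 in SY522ROB with a median of -0.19, and its mean was -0.17 ± 0.12 (adjusted p = 0.00518). Cd8a also had the poorest agreement between arrays of the same mouse, which differed by 0.49 in TP4168 and 0.38 in SY518Z. Cd4, the helper coreceptor, stood at -0.10 ± 0.07 (adjusted p = 0.0178), negative in 6 mice and 0 in the other 2. The difference between the coreceptors was 0.07 ± 0.10 (exact p = 0.125, adjusted 0.153).

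The lymphoid antigen farthest from 0 was Cd52 (Entrez 23833), a short lipid-anchored peptide on lymphocytes and monocytes. It ran from -0.56 to 0.00 with a median of -0.48. A single mouse, TP4215, was at 0.00 and the other 7 lay between -0.56 and -0.26. The mean of -0.40 ± 0.19 is a 1.32-fold difference (adjusted p = 0.000187), and 2 probes gave -0.40 and -0.41. Cd244a (Entrez 18106), a receptor of natural killer cells, ran from -0.37 to -0.07 with a median of -0.26. It was negative in 8 of 8 mice, with a mean of -0.25 ± 0.10 (adjusted p = 0.00017). Cd6 (Entrez 12511), a T-cell adhesion receptor, ran from -0.32 to -0.14 with a median of -0.20 and was also negative in 8 of 8 mice. Its mean was -0.22 ± 0.06 (adjusted p = 8.48e-05), the narrowest spread among these 3.

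The 7 lymphoid antigens that were not called had means between -0.08 and 0.05. They included the B-cell genes Cd79a (0.03 ± 0.06), part of the B-cell receptor, and Cd22 (-0.08 ± 0.16), an inhibitory lectin. Cd79a was exactly 0 in 6 of 8 mice. Cd27 (-0.04), Cd37 (0.03), Cd7 (0.05), Cd160 (0.02) and Cd3e made up the rest.

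In the myeloid class, receptors of macrophages lay on both sides of 0. Cd80 and Cd86 encode the B7 ligands with which antigen-presenting cells costimulate T cells. Cd80 (Entrez 12519) ran from 0.14 to 0.32 with a median of 0.20. It was positive in 8 of 8 mice, with a mean of 0.21 ± 0.07, a 1.15-fold difference (adjusted p = 0.000226). Cd86 stood at -0.09 ± 0.07 (adjusted p = 0.0275), with 6 mice negative and 2 at 0. Cd80 exceeded Cd86 in every one of the 8 mice, by 0.30 ± 0.12 (exact sign-flip p = 0.00781, adjusted 0.043). The pair was picked with the opposite signs known, which the p-value does not account for.

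Cd163 (Entrez 93671), the macrophage receptor for haptoglobin-haemoglobin complexes, ran from 0.00 in TP4215 to 0.32 with a median of 0.17. It was positive in the other 7 mice, with a mean of 0.17 ± 0.10 (adjusted p = 0.00201). Cd5l (Entrez 11801), a secreted scavenger protein of Kupffer cells, ran from -0.38 to 0.07 with a median of -0.20. SY518Z and TP4215 were above 0 and the other 6 mice below, with a mean of -0.17 ± 0.16 (adjusted p = 0.0145). The difference between Cd163 and Cd5l was 0.34 ± 0.22, positive in 7 of 8 mice (exact p = 0.0234, adjusted 0.0516), which missed the threshold after adjustment.

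Cd300c2 (Entrez 140497), an activating receptor of the CD300 family on myeloid cells, ran from -0.38 to 0.00 with a median of -0.20. It was 0 in SY524ROB+L and SY522ROB and negative in the other 6 mice, with a mean of -0.18 ± 0.14 (adjusted p = 0.00576). Its inhibitory relative Cd300a, at -0.04 ± 0.07, was not called, and the difference between them was 0.14 ± 0.16 (exact p = 0.0625, adjusted 0.0859). Cd209g, a lectin related to DC-SIGN, stood at -0.01 ± 0.07 and was not called.

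The Fc gamma receptors of phagocytes lay just past the threshold. Fcgr1 (Entrez 14129), the high-affinity receptor, ran from -0.26 to 0.20 with a median of -0.20. Only TP4215 was above 0 and TP4205 was at 0, with a mean of -0.14 ± 0.17 (adjusted p = 0.0419). Fcgr3 (Entrez 14131), a low-affinity activating receptor, ran from -0.20 to 0.14 with a median of -0.17, with the same pair of mice above and at 0, and a mean of -0.11 ± 0.12 (adjusted p = 0.0492). Both calls were lost when any of 6 mice, all but TP4215 and TP4205, was left out (adjusted p of 0.0769 to 0.101 for Fcgr1 and 0.0665 to 0.121 for Fcgr3). Fcgrt, the neonatal Fc receptor that spares IgG and albumin from breakdown and is made by endothelium and hepatocytes, stood at 0.08 ± 0.08 (adjusted p = 0.0668). It exceeded Fcgr3 by 0.19 ± 0.11, in 7 mice with 1 equal (exact p = 0.0156, adjusted 0.043). Fcgr1 and Fcgr3 differed by -0.03 ± 0.10 (exact p = 0.5). Both pairs were picked with their values known.

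**Figure D3:**
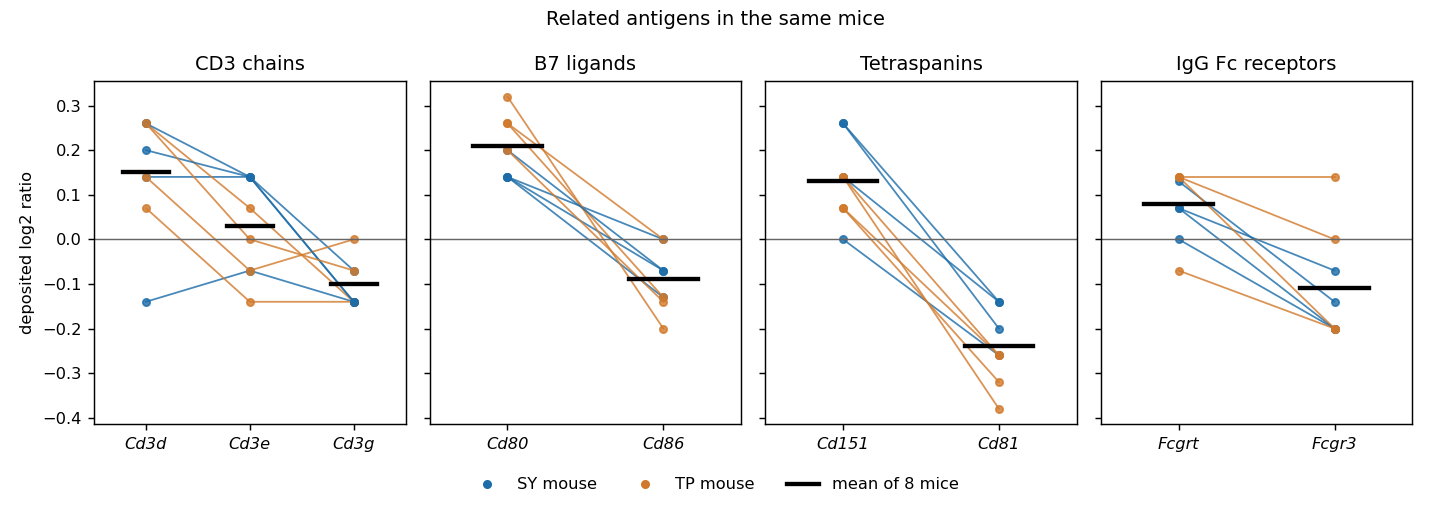
Deposited log2 ratio (vertical axis) of related antigens, with a point for each mouse and a bar at the mean of 8 mice. Cd80 lies above Cd86 in 8 of 8 mice, and Cd151 above Cd81 in 8 of 8 mice.

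Antigens of broad expression held the genes farthest from 0. Ly6d (Entrez 17068), a Ly6 protein of lymphoid progenitors and epithelia, ran from -1.74 in TP4163 to -0.26 in SY524ROB+L with a median of -0.84. It was negative in 8 of 8 mice, and its mean of -0.89 ± 0.47 is a 1.85-fold difference (adjusted p = 0.000231). Its spread was the widest of all 49 antigens, so the size of the difference varied among mice more than its sign. Ly6e (Entrez 17069), a Ly6 protein found on many cell types, ran from -1.07 in SY518Z and TP4168 to -0.26 in TP4215 with a median of -0.56. It too was negative in 8 of 8 mice, at -0.63 ± 0.32, a 1.54-fold difference (adjusted p = 0.00022). The mice that were lowest for Ly6d and for Ly6e were different ones, and Ly6e minus Ly6d was 0.26 ± 0.57 (exact p = 0.438).

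Other Ly6 genes did not share those values. Ly6f was positive in 8 of 8 mice at 0.13 ± 0.06 (adjusted p = 0.00322). Ly6c1 (0.06 ± 0.11), an antigen of endothelium and some lymphocytes, and Ly6h (-0.02 ± 0.11) were not called. The cDNA probes of gene families such as Ly6, Fcgr and Cd300 can also bind transcripts of close relatives, and this was not tested.

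Cd1d1 (Entrez 12479), which presents lipids to natural killer T cells and is made by hepatocytes as well as by leukocytes, was the antigen farthest above 0. It ran from 0.26 to 0.43 with a median of 0.38, positive in 8 of 8 mice. Its mean of 0.36 ± 0.07, a 1.28-fold difference, had the lowest adjusted p of the 49 antigens, 6.20e-06.

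Cd53 (Entrez 12508), a tetraspanin found on leukocytes, ran from -0.58 to 0.14 with a median of -0.48. TP4215 was the only mouse above 0, and the other 7 lay at -0.32 or lower. The mean was -0.40 ± 0.23, a 1.32-fold difference (adjusted p = 0.000579). Other tetraspanins differed in sign. Cd81 was negative in 8 of 8 mice at -0.24 ± 0.08 (adjusted p = 0.000131). Cd151, which binds laminin-receptor integrins, stood at 0.13 ± 0.09 (adjusted p = 0.00779), with 7 mice positive. Cd151 exceeded Cd81 in 8 of 8 mice, by 0.38 ± 0.09 (exact p = 0.00781, adjusted 0.043). This pair too was picked with the opposite signs known, which the p-value does not account for. Cd63 (-0.08), a marker of late endosomes, and Cd82 (-0.03) were not called.

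Cd55 (Entrez 13136), which speeds the decay of complement convertases, ran from -0.43 to -0.26 with a median of -0.38. It was negative in 8 of 8 mice at -0.35 ± 0.09, a 1.28-fold difference (adjusted p = 1.23e-05). Cd59a, which blocks the membrane attack complex, stood at -0.03 ± 0.10 and was 0 in 5 mice. The difference between Cd55 and Cd59a was not tested, and both stood at -0.26 in TP4215. Cd93, which takes part in clearance of dying cells and marks endothelium, stood at -0.12 ± 0.11 (adjusted p = 0.0219; its 2 probes gave -0.10 and -0.15). Cd47, the inhibitory ligand of SIRP alpha, stood at -0.11 ± 0.09 (adjusted p = 0.0192).

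Among the remaining broad antigens, Cd99 (Entrez 673094), an adhesion protein of leukocyte transmigration, ran from -0.54 in TP4168 to -0.07 with a median of -0.26 and was negative in 8 of 8 mice. Its mean was -0.26 ± 0.13 (adjusted p = 0.000535). Cd44, the hyaluronan receptor, was likewise negative in 8 of 8 mice at -0.22 ± 0.13 (adjusted p = 0.00147), as was Cd40, a costimulatory receptor of the TNF receptor family, at -0.19 ± 0.12 (adjusted p = 0.00238). The sialomucin Cd164 stood at -0.18 ± 0.12 (adjusted p = 0.00354). Cd320, the receptor that takes up transcobalamin with its vitamin B12, lay on the opposite side at 0.16 ± 0.13 (adjusted p = 0.0076). The broad antigens without a call besides those named above were Cd48 (-0.10), Cd24a (-0.01), Cd200 (0.08) and Cd109 (0.14 ± 0.21, n = 6). Cd2bp2, which is no surface antigen, stood at -0.07 ± 0.07 and was not called.

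A stricter reading of size left few antigens. Tested against a minimum of 1.2-fold in place of 0, only Ly6d passed (1 of 49, 2.04%; 1.47% of all features). Because the spread of control mice is unknown, the error was also computed as if the control RNA were a mix of 7 mice that varied like the treated ones. Then 16 of 49 were called, 12 negative and 4 positive (32.7%, against 21.7% of all features). They were Ly6d, Ly6e, Cd53, Cd52, Cd55, Cd99, Cd244a, Cd81, Cd6, Cd44, Cd40 and Cd164 below 0 and Ly6f, Cd163, Cd80 and Cd1d1 above it. Cd3d, Cd3g, Cd4, Cd8a and the Fc gamma receptors were among those lost.

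Calls of 24 of the 29 antigens held when each mouse in turn was left out. In these fits 36.1% to 44.2% of all features were called. How many of all features held their call in every fit was not counted. Besides Fcgr1 and Fcgr3, Cd86 lost its call without SY518Z, TP4205 or TP4163 (adjusted p of 0.0598 to 0.0773), Cd47 without SY518Z or TP4205 (0.0504 to 0.0548) and Cd93 without TP4168 (0.0602). Cd200 gained a call without SY518Z (adjusted p = 0.0342) and Fcgrt without TP4168 (0.0288).

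For the macrophage antigens Fcgr1 and Fcgr3 and the leukocyte antigens Cd52 and Cd53, TP4215 was the highest mouse. It shared the highest value of Cd5l, 0.07, with SY518Z. Not all myeloid antigens followed: TP4215 was the lowest mouse for Cd163 (0.00) and stood at -0.13 for Cd86 and -0.14 for Cd300c2. Of the 22 negative antigens, it was below 0 for 16, at 0 for 2 and above 0 for 4, where the other mice were below 0 for 18 to 21. The 4 were Cd53, Cd5l, Fcgr1 and Fcgr3. Without this mouse, the means were -0.48 for Cd53, -0.46 for Cd52, -0.21 for Cd5l, -0.19 for Fcgr1 and -0.14 for Fcgr3. Leaving out the highest or joint highest mouse moves a mean below 0 farther from 0, so these shifts follow from the choice. A list of 16 Kupffer cell and macrophage markers, 2 of them Cd163 and Cd5l, had a median of 0.03 in TP4215 and of -0.38 to -0.17 in the other 7 mice. Over all mice 11 of these markers were negative and 1 positive, with a median of -0.21 (75.0% called, against 43.4% of all features). The negative markers farthest from 0 were the lysosomal Cd68 (-0.65 ± 0.22) and Ctss (-0.38 ± 0.26) and the lectin Lgals3 (-0.58 ± 0.32), and the complement genes C1qa, C1qb and C1qc stood at -0.23 to -0.28. Of the 4 markers that were not called, Mrc1 stood at 0.11 ± 0.20. The others, the defining Kupffer cell and macrophage genes Clec4f (-0.05 ± 0.11), Adgre1 (-0.03 ± 0.21) and Marco (-0.16 ± 0.48), were each highest in TP4215 (0.14, 0.32 and 0.54). The part of macrophage content in the values of these antigens was not tested. The 5 antigens were singled out after their values had been seen. Other leukocyte antigens went the other way and were lowest in TP4215, among them Ptprc (CD45, -0.43), Cd40 (-0.38) and Cd4 (-0.20).

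**Figure D4:**
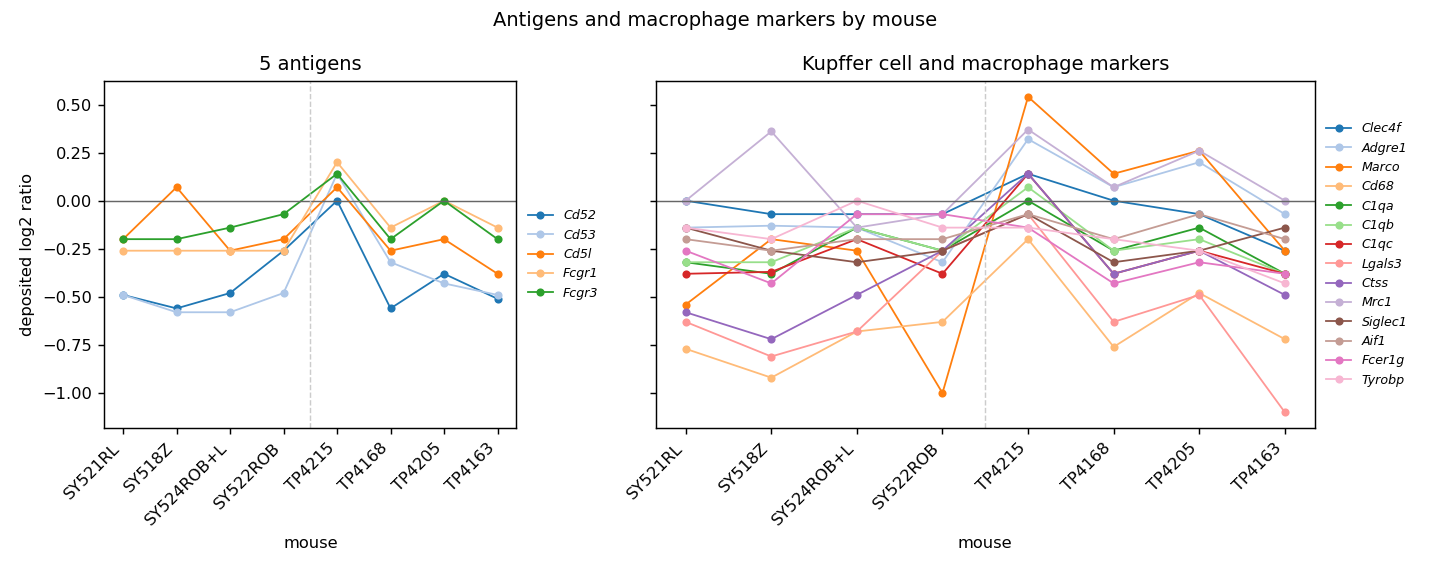
Deposited log2 ratio (vertical axis) of 5 antigens and of the macrophage markers in each mouse (horizontal axis), with lines that only join the values of a gene. The 5 antigens lie at 0.00 to 0.20 in TP4215.

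Marker lists of other liver cells gave the following values beside these. Of 12 stellate cell and fibroblast markers 7 were negative and 0 positive (median -0.11), and of 10 endothelial markers, which include Cd93, 3 were negative and 1 positive (median -0.03). Of 12 hepatocyte markers 2 were negative and 3 positive (median 0.08), and of 8 neutrophil markers 3 were negative (median -0.07). Of 5 bile duct markers 3 were negative and 1 positive (median -0.25). The shares called were 58.3% for stellate cell and fibroblast, 40.0% for endothelial and 41.7% for hepatocyte markers. They were 37.5% for neutrophil and 80.0% for bile duct markers, against 43.4% of all features. None of 5 erythroid markers was called by limma (median 0.01), and 0 had an unadjusted p under 0.05. Their part in the antigen values was not tested.

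CD antigens that are known under other symbols were counted by class. Of 17 lymphoid antigens with other symbols, 3 were negative and 2 positive (29.4% called; median 0.00). The called genes farthest from 0 were the inhibitory receptor Lag3 (-0.24 ± 0.09), the costimulatory receptor Tnfrsf4 (-0.20), and the cytokine receptor chains Il7r (-0.18) and Il2rb (0.18 ± 0.11). Itgae, an integrin chain, stood at 0.22 ± 0.33 (n = 7) and was not called. Of 14 myeloid antigens 3 were negative and 0 positive (21.4%; median -0.04): the receptor tyrosine kinase Axl (-0.26 ± 0.12), the sialic-acid lectin Siglec1 (-0.22 ± 0.09) and the inhibitory receptor Sirpa (-0.11). These shares lay below the 43.4% of all features. Of 32 broad antigens 13 were negative and 4 positive (53.1%; median -0.08), led by Bsg (-0.44 ± 0.07), Epcam (-0.42 ± 0.24) and Lamp1 (-0.38 ± 0.14). Ptprc, which encodes the pan-leukocyte antigen CD45, stood at -0.16 ± 0.16 (adjusted p = 0.0204).

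Of 24 genes for the signalling and cytoskeletal machinery inside leukocytes, 16 were negative and 2 positive, with a median of -0.13. This is 75.0% called, against 43.4% of all features. The lysosomal membrane protein Laptm5 ran from -0.96 to -0.38 and stood at -0.76 ± 0.18 (adjusted p = 2.46e-06). The NADPH oxidase subunit Cyba (-0.36 ± 0.14) and the transcription factor Irf8 (-0.29 ± 0.08) were likewise negative in 8 of 8 mice. On the positive side were the myeloid transcription factor Spi1 (0.28 ± 0.10, n = 7) and the adaptor Lcp2 (0.10 ± 0.08).

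The mouse identifiers fall into an SY and a TP series of 4 mice each, whose meaning the labels do not state. An array code nearly follows them: the arrays of TP mice carry bl7 and those of SY mice c3z, except SY518Z, with 1 array of each. Fits on a single series needed values in 3 or more mice, so the antigens tested differ from those of the fit on 8 mice. Fitted on the SY mice alone, 19 of 52 antigens were called, 14 negative and 5 positive (36.5%, against 24.9% of all features). There Cd5, Cd79b and Cd209a were tested too, and none of them was called. On the TP mice alone, 23 of 48 were called, 17 negative and 6 positive (47.9%, against 37.4%). Both fits use the same control RNA. Ly6e stood at -0.64 in SY and -0.61 in TP mice, Cd52 at -0.45 and -0.36, Cd55 at -0.32 and -0.39, and Cd1d1 at 0.39 and 0.32.

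The difference between the series was called for 3 of 49 antigens (6.12%), close to the 5.70% of all features. The mean of Cd22 was -0.21 over SY mice and 0.05 over TP mice (adjusted p of the limma difference, 0.0396). SY mice lay between -0.26 and -0.14 and TP mice between -0.07 and 0.20. These are the values that gave the call, so their ranges add no support to it. Cd160, a receptor of natural killer and T cells, stood at 0.13 in SY and -0.10 in TP mice (adjusted p = 0.0457). Every SY mouse was above 0 and every TP mouse below 0 for Cd160, again in the values that gave the call. Of its 2 probes, 1 had values on only 9 arrays, and with the other probe alone the means were 0.07 and -0.03 and the call was lost (adjusted p = 0.395). Cd109, a lipid-anchored protein that binds TGF-beta, stood at 0.02 in 4 SY mice and 0.37 in 2 TP mice (adjusted p = 0.0444). None of these 3 differences held in every leave-one-out fit: Cd22 was lost without any of 5 mice, Cd109 without any of 6 and Cd160 without any of 7.

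Without SY518Z, the mouse with mixed array codes, 7 of 49 antigens differed between the series, a share close to the 15.3% of all features. Ly6d was among them, averaging -0.46 over SY mice and -1.18 over TP mice (adjusted p = 0.0333). With all 8 mice Ly6d stood at -0.59 and -1.18 (adjusted p = 0.0955). Whether the animals, the array code or another property of the series accompanies the difference cannot be told apart.

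**Figure D5:**
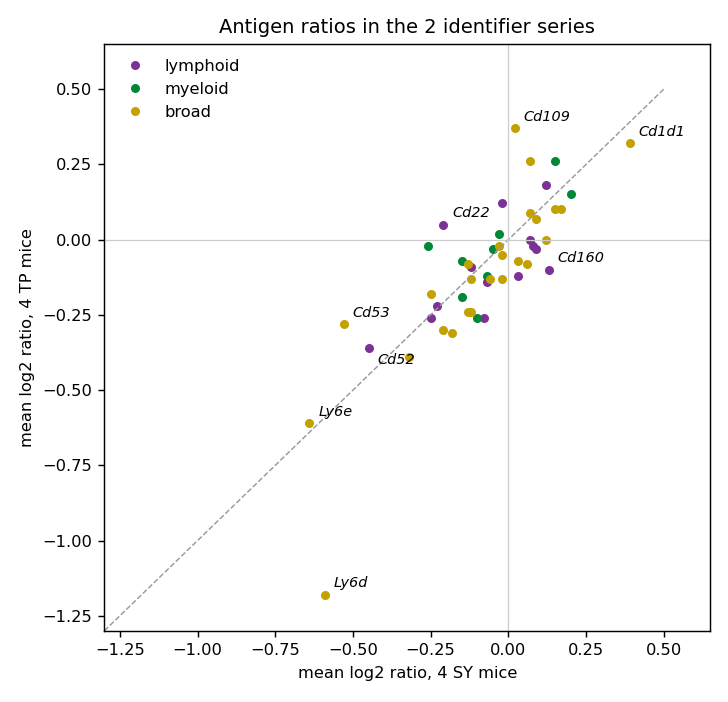
Mean deposited log2 ratio of each tested antigen of the 3 classes in the 4 SY mice (horizontal axis) and the 4 TP mice (vertical axis; 2 for Cd109), with the dashed line of equality. Ly6d lies at -0.59 and -1.18, and Cd22, Cd160 and Cd109 are the 3 antigens called between the series.

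Arrays of the same mouse differed less than mice did. Over the 49 antigens, the SD between the arrays of a mouse had a median of 0.07 (0.00 to 0.17) and the SD between mice a median of 0.11 (0.05 to 0.47). The spread between mice exceeded that between arrays for 38 of 49. In SY518Z the SD between arrays was 0.12, where it was 0.06 to 0.08 in the other 7 mice. On each array 8094 to 9314 of 9596 probes had a value. Precision is limited by how many mice and arrays there were.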

How the data were processed

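Liver poly(A) RNA of 8 treated mice was measured on 16 cDNA arrays of 9596 probes. The authors deposited log2 ratios of the Cy5 and Cy3 channels; how they were normalized, why some are blank and which channel is the numerator are not stated in the sources used here. Each of the 144660 values was a log2 of a 1-decimal ratio, or its negative (tolerance 0.01 on 10 times the ratio), and 31.8% were 0. Array medians were all 0, and no further normalization was applied. No dyes were swapped.

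Gene names came from the 2007 platform annotation, matched by Entrez identifier to RefSeq (GRCm38.p6, names only); 7407 probes had 1 symbol, 437 several and 1752 none. Probes of a gene, then the 2 arrays of a mouse, were averaged. Features with values in 6 or more mice were tested by limma's lmFit and eBayes (limma 3.58.1, R 4.3.3; two-sided p, adjusted by Benjamini-Hochberg over 8348 features, threshold 0.05); the SY and TP series were compared with the same model. Gene pairs were compared by exact sign-flip tests. Fits on 1 series needed values in 3 or more mice, and fits without a mouse in 5 or more. Scripts were tested on simulated data. Alternatives covered centring, scaling, quantile normalization, probes, blanks, single arrays, arrays blocked by mouse, robust moderation, each series, each mouse left out, a minimum fold and control spread.

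The antigens and gene lists were chosen with earlier results of these data known. Every antigen was named; per class the 6 called antigens farthest from 0 and those called between the series were described in full, and in each context list the 3 called genes farthest from 0 were named with their means. Ptprc, Il2rb, Itgae, Spi1, Lcp2, the named macrophage markers and the genes of the pairs fall outside this rule and were chosen after their values were seen. Cd244a, Cd209g and Cd300c2 were classed with their gene families after the annotation was read. Promoters came from RefSeq. Figures were drawn with matplotlib 3.10.9.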

Additional observations from a re-analysis of the deposited data

Results flagged for a closer look

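For 3 of 49 antigens the gap from 1 mouse to the nearest other mouse, divided by the range of all mice, was above Dixon's critical value, a criterion that about 1 in 20 groups meets by chance. The 3 of 49 lie near that rate, and the share of all features that meet it was not computed. In 2 of the 3 the mouse was TP4215, in opposite directions. TP4215 was the highest mouse for Cd53, at 0.14, and the lowest for Cd59a, at -0.26. TP4168 was the lowest mouse for Cd99, at -0.54. Without TP4215, left out because it was the highest mouse, Cd53 stood at -0.48.

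For 3 antigens limma called the difference between SY and TP mice. SY minus TP was -0.26 ± 0.07 (SE) for Cd22, -0.36 ± 0.09 for Cd109 and 0.23 ± 0.06 for Cd160. When calls were lost on leaving out a mouse, adjusted p ranged from 0.0809 to 0.13 for Cd22, from 0.0579 to 0.193 for Cd109 and from 0.0596 to 0.135 for Cd160.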

How the results depend on the processing

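Quantile normalization, scaling to a common SD, robust moderation and the limit to genes with values in all 8 mice each left 29 antigens called, and the same 29. No value changed its sign in a call under any alternative run. In SY mice alone 19 of 52 antigens were called (broad 9 of 25, myeloid 4 of 10), where 24.9% of all features were. In TP mice alone 2 of 9 myeloid antigens were called, where 37.4% of all features were. With a minimum of 1.2-fold limma called 1 antigen in all (broad 1, lymphoid 0, myeloid 0; at an unadjusted p under 0.05, 1 lymphoid and 0 myeloid). With the control as a mix of 7 mice, 16 were called (lymphoid 3, myeloid 2). The share of all features called was 1.47% with the minimum fold and 21.7% with this mix. It was 43.2% after centring on the mean, 36.9% on the second arrays and 36.1% to 44.2% when a mouse was left out. The 7 myeloid calls became 4 after centring on the mean, which lost Cd86, Fcgr1 and Fcgr3, 4 on the second arrays, and 4 to 7 when a mouse was left out, with 4 without SY518Z and 4 without TP4163. The 3 calls between SY and TP became 1 over genes with values in all 8 mice, 0 on the first arrays (limma; 7 at an unadjusted p under 0.05), 1 on the second arrays and 0 to 7 when a mouse was left out: 7 without SY518Z, 4 without TP4163, 1 without TP4215 and 0 without any of the others (6 to 9 at an unadjusted p under 0.05). The cause was not tested, beyond the smaller number of mice or arrays. Counts for the other gene lists under these alternatives were added after the data had been seen; under mouse removal, the stellate list went from 7 to 4 calls without TP4168. The ratios carry no intensities, so signal over background is unknown, and a difference under 1 step of the rounding in single values can only be seen in the mean of mice.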

Other observations

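Cd24a, an antigen of progenitor and bile duct cells as well as leukocytes, had a mean of -0.01 and the widest spread among the antigens that were not called, 0.29. It was lowest in SY518Z (-0.48) and TP4168 (-0.32) and highest in SY524ROB+L (0.38). The median of 5 bile duct markers was -0.32 in SY518Z, -0.58 in TP4168 and 0.20 in SY524ROB+L. In SY524ROB+L the markers were split, with Krt19 (-0.14) and Epcam (-0.38) below 0 and Krt8 (0.20), Sox9 (0.26) and Cldn4 (1.07) above it. The signs were opposite in SY521RL (Cd24a 0.20, median -0.14) and TP4205 (0.14 and -0.13), and in TP4163 Cd24a was 0.00 with a median of -0.32. The relation was seen in the values and was not tested.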
